A study of Mus musculus with 24 samples.

Results

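The kallikrein peptidase cluster around Klk10 was followed through 18 libraries of mouse hippocampal messenger RNA. Its 8 members, Klk5, Klk6, Klk7, Klk8, Klk9, Klk10, Klk11 and Klk13, were taken from a list of neighbouring genes on chromosome 7, out of 47069 genes in the count files. The cluster was chosen by the higher counts of Klk10 in both Kdm5c mutants, and the question was whether its neighbours share that difference. The values of Klk10 between genotypes are therefore given as a description, without a test. Its neighbours entered by position and were tested.

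The Kdm5c protein removes methyl groups from lysine 4 of histone H3. Each of 6 groups held 3 libraries, and each library pooled hippocampal RNA of 3 male mice aged 2 to 4 months. KO mice lack Kdm5c in all cells and, like the wild-type (WT) mice, had a mixed F1 C57/129 background. Groups of KO and WT mice were taken untreated, and further groups of KO and WT mice after novelty, which was 1 h alone in a box with tubes and toys. In ifKO mice, floxed Kdm5c (Kdm5c f/f) was combined with CaMKIIα-creERT2, a tamoxifen-dependent Cre recombinase expressed in excitatory forebrain neurons, on a C57BL/6J background. Untreated ifKO mice were compared with untreated control mice of that line, where untreated means only that there was no novelty. Cre and tamoxifen status of these controls is not stated in the labels. KO and WT libraries had single reads of 50 nt and shared 1 flowcell, and the inducible line had paired reads of 75 nt on another. Line, flowcell and read layout cannot be told apart, so levels are compared within a line.

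Libraries held 16 to 45.6 M counts in genes. Kdm5c itself averaged 75.8 ± 0.458 CPM in untreated KO and 75.3 ± 1.08 CPM in untreated WT (SD, n = 3 each), where CPM are counts per M counts after TMM scaling. After novelty it averaged 81 ± 4.81 CPM in KO and 95.4 ± 4.97 CPM in WT (adjusted p = 0.108, edgeR's quasi-likelihood test). All KO libraries were lower there, an order that 4.56% of all tested genes had. In the inducible line Kdm5c averaged 66 ± 2.75 CPM in ifKO and 64 ± 3.08 CPM in control. A count over the whole gene thus does not check the deletion. Every record names hippocampal tissue as its source, although the extraction protocol mentions cultures. All of 12 markers of excitatory hippocampal neurons had counts in every library, which cannot tell tissue from cultures of such neurons. Libraries of 1 group differ by pools of mice, so every SD, SE and p measures the spread between pools. KO novelty library 2 and WT novelty library 1 stood apart in an earlier analysis of these counts, and KO untreated library 2 and control library 1 were high in choroid plexus markers. Results that rest on these libraries are also given without them.

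Kallikrein-related peptidases are secreted serine proteases, made as inactive precursors and activated when a short propeptide is removed, often by another member of the family. They are best known from skin, where Klk5 and Klk7 take part in the shedding of surface cells. In the hippocampus Klk8, or neuropsin, is the best studied: it is made by neurons, cleaves synaptic proteins such as L1cam and Ephb2, and takes part in synaptic plasticity. Klk6, or neurosin, is known from oligodendrocytes, the myelin-forming cells. Klk10 is a less well understood member of the family.

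All members lie on the plus strand and span 138615 bases in GRCm38. Klk10 (ENSMUSG00000030693) occupies chr7:43781035-43785410 and has 6 exons. Klk13 and Klk11 come before it, at chr7:43712567-43727534 and chr7:43774604-43779263. Klk9 and Klk8 follow, at chr7:43791891-43796757 and chr7:43797577-43803826, and then Klk7 at chr7:43811294-43816359, Klk6 at chr7:43824499-43832030 and Klk5 at chr7:43841971-43851181. Klk11 ends 1771 bases before Klk10 starts, and 6480 bases separate Klk10 from Klk9. Only 819 bases lie between Klk9 and Klk8.

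The promoter windows of Klk10 and of its next expressed neighbours are shown because these genes lie close together and had unlike values in the mutants. Each window runs from 250 bases before to 50 bases after the start (RefSeq, GRCm38.p6, plus strand), and capitals mark CG dinucleotides.
Klk10, chr7:43780804-43781103: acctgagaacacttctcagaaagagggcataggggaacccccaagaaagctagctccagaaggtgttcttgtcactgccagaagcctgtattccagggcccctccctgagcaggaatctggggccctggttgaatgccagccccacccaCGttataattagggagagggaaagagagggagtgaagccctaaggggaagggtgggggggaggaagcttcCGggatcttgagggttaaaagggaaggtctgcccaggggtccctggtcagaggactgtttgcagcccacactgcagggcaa
Klk9, chr7:43791641-43791940: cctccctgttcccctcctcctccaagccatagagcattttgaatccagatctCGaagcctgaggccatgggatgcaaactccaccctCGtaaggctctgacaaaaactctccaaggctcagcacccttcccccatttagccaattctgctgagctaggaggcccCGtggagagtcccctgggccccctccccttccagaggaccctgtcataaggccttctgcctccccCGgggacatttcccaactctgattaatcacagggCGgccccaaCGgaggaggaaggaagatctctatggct
Klk8, chr7:43797327-43797626: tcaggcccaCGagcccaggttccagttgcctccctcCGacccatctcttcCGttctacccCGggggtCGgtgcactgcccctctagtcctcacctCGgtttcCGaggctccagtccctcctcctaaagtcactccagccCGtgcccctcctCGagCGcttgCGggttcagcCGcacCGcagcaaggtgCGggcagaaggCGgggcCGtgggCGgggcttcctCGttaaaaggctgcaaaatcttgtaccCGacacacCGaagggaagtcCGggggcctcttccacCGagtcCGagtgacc
The window of Klk10 held 2 CG dinucleotides, that of Klk9 held 6 and that of Klk8 held 23, against a median of 7 over 32851 mouse promoter windows. Fewer CG were found in 14.1% of all windows than in that of Klk10, in 43.6% than in that of Klk9 and in 78.5% than in that of Klk8. All 8 members had a window in the table, and 2 of them, Klk6 and Klk11, had 2. Windows of the other 5 members held 2 to 8 CG. The motif TCCCGC, an E2F site on either strand (GCGGGA), occurred in 20% of all windows and, among the members, only in the first window of Klk6, with 2 matches. The E-box CACGTG, which reads the same on both strands, occurred in 7.15% of all windows and in none of the members' windows. Neither motif contains the other, and a missing match says only that these letters are not in the window.

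Klk10 was higher in each mutant group than in its own wild-type or control group, and no library of a mutant overlapped with those it was compared with. In untreated KO it stood at 11.8, 11 and 12.6 CPM (538, 239 and 372 counts), against 1.17, 1.11 and 1.01 CPM in untreated WT (19, 25 and 24 counts). After novelty it stood at 12.4, 10.1 and 10.9 CPM in KO (276, 165 and 217 counts), against 1.71, 1.26 and 1.33 CPM in WT (47, 39 and 28 counts). In the inducible line it stood at 2.97, 2.58 and 2.68 CPM in ifKO (128, 99 and 97 counts), against 0.648, 0.348 and 0.475 CPM in control (25, 13 and 21 counts). All mutant libraries were higher, an order that 11.6%, 6.64% and 6.55% of all tested genes had in these 3 comparisons. Since this contrast chose the cluster, the order is a description.

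The fitted log2 fold change of Klk10 was 3.43 ± 0.15 (SE) in untreated KO, a fold of 10.8, and ranked 10 among 16392 genes by size of rise. After novelty it was 2.96 ± 0.14 in KO, a fold of 7.77 and rank 14, and 3.17 ± 0.16 without the 2 novelty libraries that stood apart. For ifKO it was 2.48 ± 0.21, a fold of 5.57 and rank 7 among 17367 genes. Without KO untreated library 2 the untreated value was 3.47, and without control library 1 the ifKO value was 2.71. The difference of KO was larger than that of ifKO by 0.96 ± 0.26 on the log2 scale, or by 0.73 ± 0.28 without control library 1. The lines differ in strain, flowcell and read layout, and in whether all cells or some lost Kdm5c. In RNA of whole hippocampus, a different number of cells of a type and a different amount of RNA per cell cannot be told apart.

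Ordered by mean level, Klk10 ran from untreated KO (11.8 ± 0.768 CPM) and KO after novelty (11.2 ± 1.16) through ifKO (2.74 ± 0.206), WT after novelty (1.43 ± 0.242) and untreated WT (1.1 ± 0.0829) to control (0.491 ± 0.15; SD, n = 3 each). The first 2 groups overlapped, and no other neighbours in this order did. CPM of the lines come from separate fits, so the places of ifKO and control among the other groups also carry the difference in libraries.

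**Figure D1:**
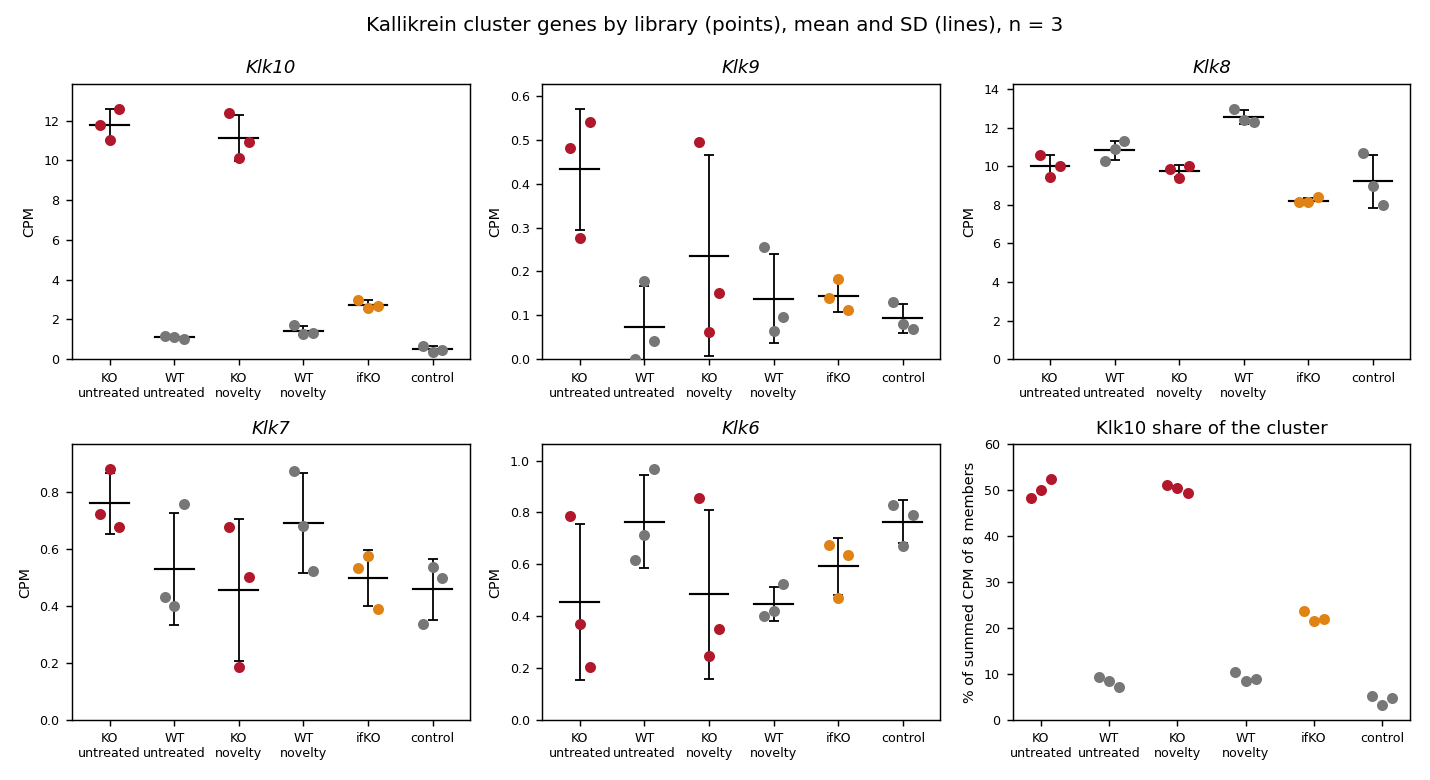
CPM of Klk10, Klk9, Klk8, Klk7 and Klk6 in each library (points), with group means and SD (lines, n = 3), and Klk10 as a percent of the summed CPM of the 8 members; groups run along the horizontal axis. Klk10 lies at 10.1 to 12.6 CPM in KO libraries and at 1.01 to 1.71 CPM in WT libraries, while Klk8 lies between 7.99 and 13.0 CPM in all 18 libraries.

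The make-up of the cluster's RNA differed with Klk10. Klk10 held 48.3, 50.1 and 52.4% of the summed CPM of the 8 members in untreated KO, against 9.36, 8.36 and 7.14% in untreated WT. In ifKO it held 23.7, 21.5 and 21.9%, against 5.12, 3.26 and 4.79% in control. Without Klk10 the other 7 members summed to 12.6, 11 and 11.4 CPM in untreated KO, against 11.3, 12.2 and 13.1 CPM in untreated WT, and these groups overlapped. After novelty they summed to 11.9, 9.9 and 11.1 CPM in KO, against 14.5, 13.6 and 13.5 CPM in WT, with every KO library lower. In ifKO they summed to 9.55, 9.4 and 9.56 CPM, against 12, 10.3 and 9.44 CPM in control, with overlap. These sums were not tested. Per kb of exon, Klk10 averaged 8.59 CPM and Klk8 6.49 CPM in untreated KO, against 0.799 and 7.03 CPM in untreated WT. On that scale Klk8 was the highest member in untreated WT, and Klk10 was the highest in untreated KO. In ifKO, Klk10 averaged 2.00 and Klk8 5.34 CPM per kb, against 0.357 and 5.98 CPM per kb in control.

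None of the 7 neighbours passed the test in untreated KO, where 1.24% of all 16392 tested genes did (edgeR's quasi-likelihood test, Benjamini-Hochberg adjusted p under 0.05). Of the 7 neighbours, 4 had counts high enough to be tested in the KO line, namely Klk6, Klk7, Klk8 and Klk9. Klk9 reached the filter's level of 0.453 CPM in 3 libraries, 2 of untreated KO, 1 of KO after novelty and 0 of WT, so it was tested only through the groups where it was high. At an unadjusted p under 0.05 the count in untreated KO was 1, Klk9, against 1419 of all 16392 tested genes, and DESeq2 also called 0. In KO after novelty 0 of the 4 passed, against 1.34% of all tested genes, with 1 at an unadjusted p under 0.05, Klk8, against 1431 of all tested genes, and 0 by DESeq2. In ifKO 0 of the 3 tested, Klk6, Klk7 and Klk8, passed, against 0.645% of all 17367 tested genes. None of these 3 had an unadjusted p under 0.05 in ifKO, where 1154 of all tested genes did, and DESeq2 called 0.

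Klk9, the next gene downstream of Klk10, lay at the lower limit of what these libraries measure. It had 22, 6 and 16 counts in untreated KO (0.481, 0.277 and 0.541 CPM), against 0, 4 and 1 counts in untreated WT (0, 0.178 and 0.042 CPM). All 3 KO libraries were above all 3 WT libraries, an order that 11.6% of all tested genes had. The log2 difference was 2.42 ± 0.77 (95% interval 0.77 to 4.07), with an unadjusted p of 0.00731 and an adjusted p of 0.249 in edgeR's test, and adjusted p of 0.0712 to 0.598 over the alternatives. Since Klk9 entered the test through KO libraries alone, this p supports no difference. Counting error alone gave a ratio of 5.67, from 44 counts against 5, with a 95% interval of 2.26 to 18.3. Both intervals hold the value of Klk10 in untreated KO, a log2 difference of 3.43 and a fold of 10.8. They rest on the same 44 and 5 counts as that p, so this supports no shared difference. WT library 2 held 4 of those 5 counts, and without it the log2 difference was 3.91.

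After novelty Klk9 had 11, 1 and 3 counts in KO (0.495, 0.0615 and 0.151 CPM), against 7, 2 and 2 in WT (0.255, 0.0646 and 0.0948 CPM). The groups overlapped, with a log2 difference of 0.85 ± 0.77 (adjusted p = 0.908, edgeR). It was -0.32 without KO novelty library 1 and 2.03 without the 2 novelty libraries that stood apart. In the inducible line Klk9 had 6, 7 and 4 counts in ifKO, against 5, 3 and 3 in control, a ratio of 1.58 with a counting interval of 0.697 to 3.73, and it was too low to be tested. The 5.57-fold difference of Klk10 in ifKO lies above that interval, which covers counting error only.

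Klk8, the most abundant member in WT and control libraries, was close to its WT level in untreated KO. It stood at 10.6, 9.43 and 10 CPM in untreated KO, against 10.3, 10.9 and 11.3 CPM in untreated WT. The log2 difference was -0.11 ± 0.08, with a 95% interval of -0.29 to 0.07 (adjusted p = 0.8, edgeR), and the groups overlapped. In ifKO it stood at 8.13, 8.15 and 8.40 CPM, against 10.7, 8.98 and 7.99 CPM in control. That difference was -0.16 ± 0.10, with an interval of -0.39 to 0.07 (adjusted p = 0.86), and -0.04 without control library 1.

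After novelty Klk8 stood at 9.86, 9.41 and 10 CPM in KO, against 13.0, 12.4 and 12.3 CPM in WT. All KO libraries were below all WT libraries, an order that 4.56% of all tested genes had. The log2 difference was -0.36 ± 0.08, with a 95% interval of -0.54 to -0.18 and an adjusted p of 0.0545 in edgeR's test, just outside the threshold. Over the alternatives the adjusted p ran from 0.0484, with a stricter filter on low counts, to 0.287, with only these 2 groups in the fit. DESeq2 gave 0.0619, and without the 2 novelty libraries that stood apart the difference was -0.32 (adjusted p = 0.0945).

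Klk8 shares 382 of its 1540 exon bases (24.8%) with 2310002F09Rik, an RNA gene on the opposite strand at chr7:43695209-43797958 that runs from before Klk13 to the start of Klk8. No other member shares an exon base with it. Libraries were stranded per the labels' protocols, but the strand setting of the counting is not stated there, and without strand the reads of this shared stretch cannot be told apart. 2310002F09Rik was singled out for this overlap after its values were seen. It stood at 4.22, 4.72 and 4.91 CPM in untreated KO, against 5.86, 6.05 and 5.67 CPM in untreated WT (log2 difference -0.35 ± 0.13, adjusted p = 0.397, edgeR). After novelty it stood at 4.05, 5.23 and 3.86 CPM in KO, against 6.04, 7.04 and 6.02 CPM in WT (-0.55 ± 0.13, adjusted p = 0.0672), and over the alternatives the adjusted p ran from 0.0157 to 0.311. It stood at 5.60, 5.57 and 5.89 CPM in ifKO, against 7.15, 6.24 and 6.04 CPM in control (-0.19 ± 0.10, adjusted p = 0.801). Every mutant library was below every library it was compared with in all 3 comparisons, an order that 9.35%, 4.56% and 5.48% of all tested genes had in the order given, and none of the 3 adjusted p was under 0.05.

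**Figure D2:**
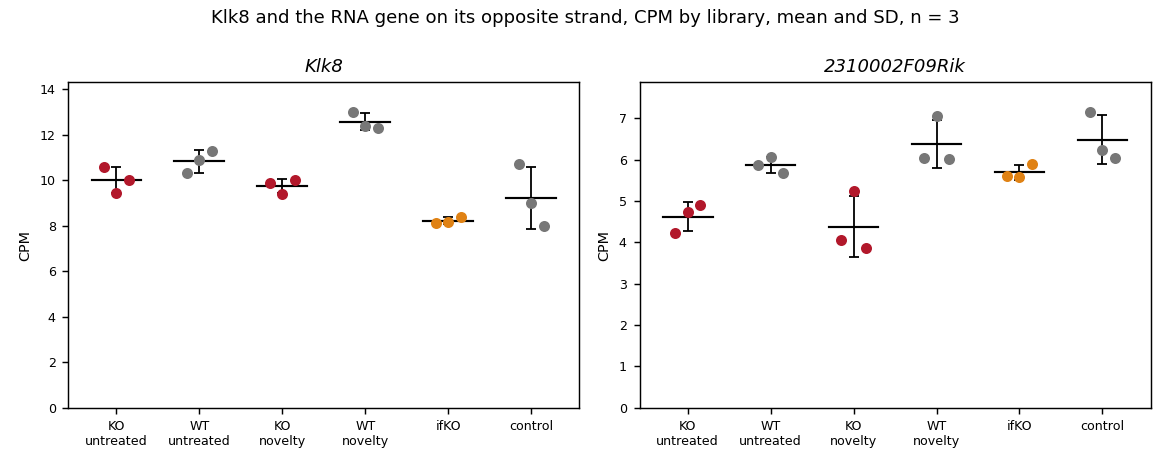
CPM of Klk8 and of 2310002F09Rik, the RNA gene on its opposite strand, in each library (points), with group means and SD (lines, n = 3); groups run along the horizontal axis. After novelty, Klk8 lies at 9.41 to 10 CPM in KO and at 12.3 to 13.0 CPM in WT, and 2310002F09Rik at 3.86 to 5.23 CPM in KO and at 6.02 to 7.04 CPM in WT.

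Klk7, a chymotrypsin-like protease known from skin, was low in all groups. It stood at 0.721, 0.878 and 0.677 CPM in untreated KO, against 0.432, 0.400 and 0.756 CPM in untreated WT, with overlap. The log2 difference was 0.47 ± 0.36 (95% interval -0.31 to 1.25, adjusted p = 0.81, edgeR). After novelty it was -0.56 ± 0.39 (adjusted p = 0.821), with 0.675, 0.184 and 0.502 CPM in KO against 0.873, 0.678 and 0.522 CPM in WT. In the inducible line it was 0.13 ± 0.28 (adjusted p = 0.973), with 0.534, 0.573 and 0.387 CPM in ifKO against 0.337, 0.536 and 0.498 CPM in control. The sign of the Klk7 difference was thus not the same in the 3 comparisons.

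Klk6 stood at 0.787, 0.370 and 0.203 CPM in untreated KO, against 0.617, 0.712 and 0.966 CPM in untreated WT. The groups overlapped through KO library 1, and the log2 difference was -0.66 ± 0.46 (95% interval -1.64 to 0.33, adjusted p = 0.783, edgeR). After novelty it stood at 0.855, 0.246 and 0.351 CPM in KO, against 0.400, 0.420 and 0.522 CPM in WT, a difference of 0.19 ± 0.52 (adjusted p = 0.981). In ifKO it stood at 0.674, 0.468 and 0.636 CPM, against 0.829, 0.670 and 0.792 CPM in control, a difference of -0.36 ± 0.23 (adjusted p = 0.86). Summed CPM of 12 oligodendrocyte markers, all with counts in every library, were 3280 to 3860 in untreated KO and 4230 to 4680 in untreated WT. They were 3410 to 3890 in KO and 3570 to 4100 in WT after novelty, and 3630 to 3960 in ifKO and 3470 to 4400 in control. Their part in the values of Klk6 was not tested.

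Klk5, Klk11 and Klk13 were barely read, so 3 of the 8 members could not be tested in either line. Klk5 had 6 counts over 18 libraries, in 4 of them. Klk11, the gene directly upstream of Klk10, had 4 counts in 4 libraries, of which 1 was in untreated KO and 0 in untreated WT. Klk13 had 8 counts in 6 libraries. In untreated KO, 1 count of Klk11 and 1 of Klk13 against 0 in untreated WT set no upper limit on a ratio. In the inducible line Klk13 had 2 counts in ifKO and 5 in control, a ratio of 0.408 with a 95% counting interval of 0.0389 to 2.49. Klk11 had 0 counts in ifKO and 2 in control, with an upper limit of 5.44, and Klk5 had 3 in ifKO and 1 in control, a ratio of 3.06 with an interval of 0.246 to 161. The upper limit of Klk13 lies below the 5.57-fold difference of Klk10 in ifKO and below its counting interval of 4.24 to 7.53. The limit of Klk11 falls within that interval, so its 2 counts do not set it apart from Klk10. The limit of Klk5 lies above the interval. All these intervals cover counting error only.

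**Figure D3:**
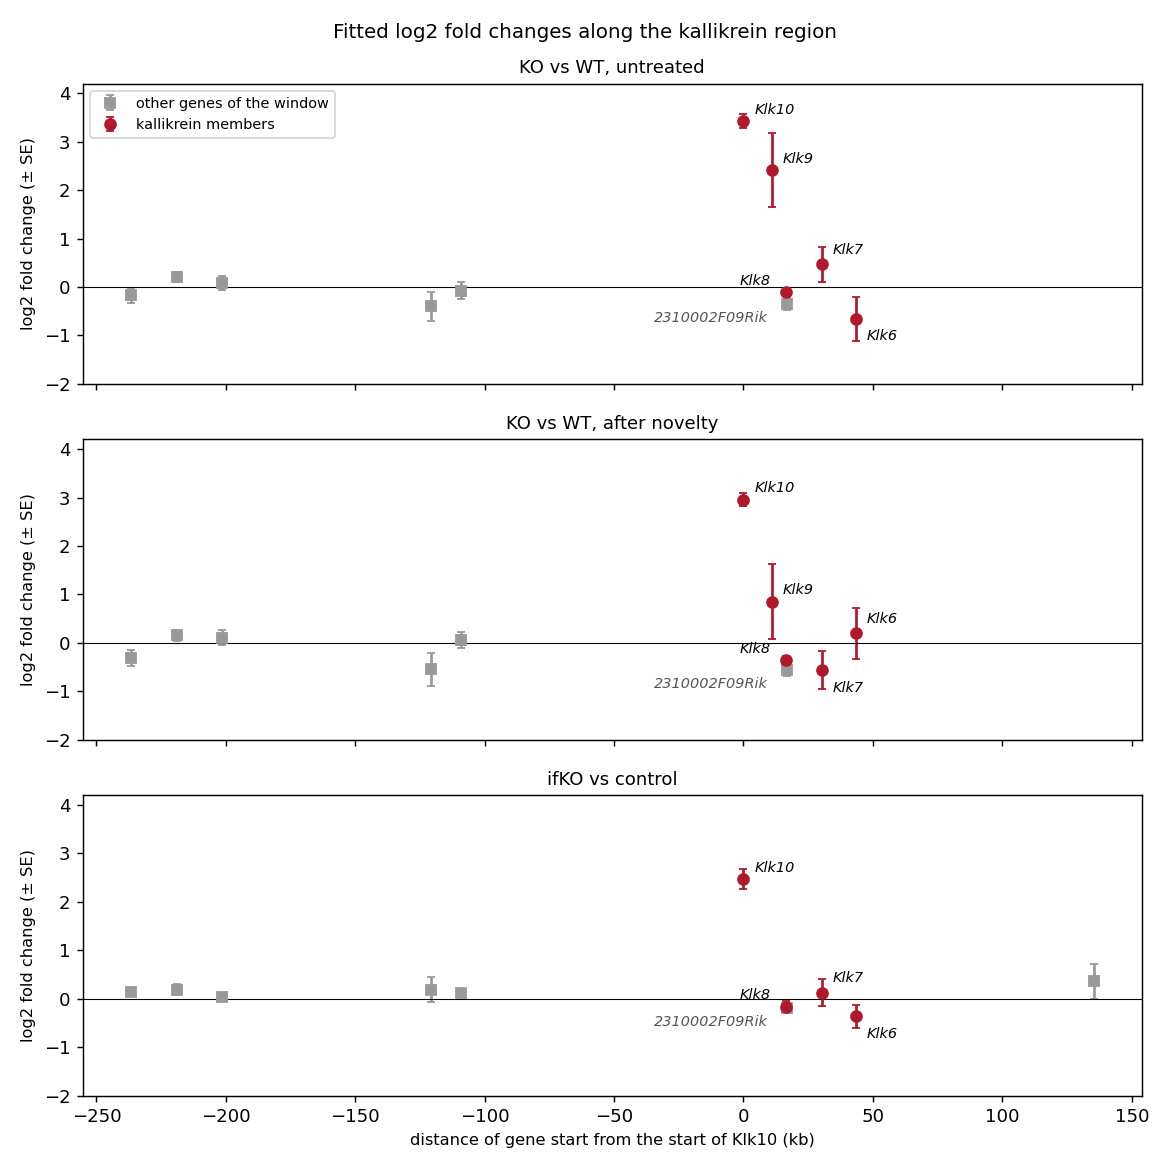
Fitted log2 fold change with its SE (vertical axis) of each tested gene within 250 kb of Klk10, against the distance of its start from that of Klk10 in kb, for untreated KO against WT, KO against WT after novelty, and ifKO against control. Klk10 lies at 3.43, 2.96 and 2.48 in these panels, and Klk8, 16542 bases further on, at -0.11, -0.36 and -0.16.

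The response to novelty did not itself choose the cluster, so Klk10 was tested here too. The same KO and WT libraries served in that choice, however, so the p values of Klk10 for novelty are not independent of it. In WT mice Klk10 stood at 1.71, 1.26 and 1.33 CPM after novelty, against 1.17, 1.11 and 1.01 CPM untreated. All 3 novelty libraries were higher, an order that 8.3% of all tested genes had, with a log2 difference of 0.39 ± 0.19 (adjusted p = 0.507, edgeR) and 0.24 without the 2 libraries that stood apart. In KO mice the difference of Klk10 was -0.08 ± 0.11 (95% interval -0.32 to 0.16, adjusted p = 0.961), with overlap. Klk8 stood at 13.0, 12.4 and 12.3 CPM after novelty in WT, against 10.3, 10.9 and 11.3 CPM untreated, again with all 3 libraries higher (0.21 ± 0.08, unadjusted p = 0.0228, adjusted p = 0.345). In KO its difference was -0.04 ± 0.08 (adjusted p = 0.984).

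Of the 5 members tested for novelty, 0 passed in WT, where 0.384% of all tested genes did, and 0 passed in KO, where 0.11% did (edgeR). Klk9 was among the 5 through KO libraries alone. At an unadjusted p under 0.05 the counts were 1 in WT, Klk8, and 0 in KO, against 1797 and 1100 of all tested genes, and DESeq2 called 0 of the 4 neighbours in both. Klk6 was lower after novelty in all WT libraries (-0.81 ± 0.48, adjusted p = 0.593), an order that 7.7% of all tested genes had. Klk7 was lower after novelty in all KO libraries (-0.66 ± 0.38, adjusted p = 0.816), an order that 6.35% had. The response to novelty was also compared between genotypes. None of the 4 neighbours passed there, and 0% of all tested genes did, with 0 neighbours and 563 genes in all at an unadjusted p under 0.05. DESeq2 called 0 neighbours. For Klk8 the response in KO minus that in WT was -0.25 ± 0.12 on the log2 scale, with a 95% interval of -0.50 to 0.00 (adjusted p = 1). For Klk10, without a test, the value was -0.47 ± 0.22, and -0.26 without the 2 libraries that stood apart.

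The KO difference at rest was set against the ifKO difference in a fit of all 18 libraries. Of the 4 neighbours, 0 passed (edgeR), against 0.114% of 17508 genes tested, with 0 neighbours at an unadjusted p under 0.05 and 0 by DESeq2. The KO difference minus the ifKO difference was 0.05 ± 0.13 for Klk8, with a 95% interval of -0.22 to 0.32. For Klk9 it was 1.80 ± 1.04, with an interval of -0.37 to 3.98, so these libraries leave its size wide. Klk9 reached the filter of the KO line in KO libraries alone and was too low for a test in the inducible line, so its value is a description. The values of Klk7 and Klk6 were 0.34 ± 0.47 and -0.28 ± 0.54.

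Genes around the cluster were read in the same way. Within 250 kb of the start of Klk10 lie 35 further genes, of which 17 had no count in any library. In KO 0 of 6 tested genes of the window passed, untreated or after novelty, where 1.24% and 1.34% of all tested genes did (edgeR). In ifKO 0 of its 7 tested genes passed, against 0.645% of all tested genes. The median log2 difference of the window's tested genes was -0.12 in KO, untreated as well as after novelty. It was 0.13 in ifKO, against 0.00 over all genes tested in each. Zfp719, a zinc finger gene and the most abundant of the window, differed by 0.09 ± 0.15 in untreated KO, 0.11 ± 0.15 after novelty in KO and 0.03 ± 0.05 in ifKO. Cd33, a surface receptor of microglia, differed by -0.17 ± 0.16, -0.31 ± 0.17 and 0.13 ± 0.06 in the same order. Zfp658, another zinc finger gene, differed by 0.21 ± 0.11, 0.16 ± 0.11 and 0.19 ± 0.11.

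Among 29 other genes with a kallikrein symbol, 16 had no count in any library and 1, Klk1b22, was tested in the KO line, without passing. Klk12, which lies between Klk13 and Klk11, had 1 count in 1 ifKO library. Klk1b22 had 5, 37 and 27 counts in untreated KO, against 25, 1 and 50 in untreated WT, and 0 in all 6 libraries of the inducible line. It belongs to a family of near-identical copies, so its counts are uncertain. Klk2-ps, a pseudogene, averaged 0.338 ± 0.269 CPM in untreated KO and 0.24 ± 0.193 CPM in untreated WT (SD, n = 3 each).

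Proteins that kallikreins cleave or signal through are encoded by 13 listed genes, of which 10 were tested. In untreated KO, KO after novelty and ifKO 0 of them passed (edgeR), against 1.24%, 1.34% and 0.645% of all tested genes. Their median log2 difference was -0.03 in untreated KO, 0.01 after novelty in KO and -0.03 in ifKO. L1cam, an adhesion molecule cleaved by Klk8, differed by -0.07 ± 0.08 in untreated KO (adjusted p = 0.877) and by -0.01 ± 0.04 in ifKO (adjusted p = 0.985). App, the amyloid precursor, differed by 0.03 ± 0.07 in untreated KO and 0.03 ± 0.03 in ifKO. Mbp, the myelin basic protein and also an oligodendrocyte marker, differed by -0.33 ± 0.09 in untreated KO (adjusted p = 0.119).

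Serpins block serine proteases, and 9 of 10 listed serpins were tested. After novelty in KO 0 of the 9 passed, against 1.34% of all tested genes. Serpina3n, a secreted serpin of astrocytes, rose in untreated KO. It was the only one of the 9 to pass there, against 1.24% of all tested genes, and the only one in ifKO, against 0.645%. It stood at 176 to 182 CPM in untreated KO, against 142 to 149 CPM in untreated WT (log2 difference 0.32 ± 0.05, adjusted p = 0.00534, edgeR, and 0.049 at most over the alternatives). Serpina3n also rose in ifKO, with 57.2 to 61.9 CPM against 43.8 to 49.3 CPM in control (0.37 ± 0.05, adjusted p = 0.00668), and missed the threshold without control library 3 (0.34, adjusted p = 0.0713). After novelty it stood at 186 to 190 CPM in KO, against 160 to 163 CPM in WT (0.22 ± 0.05, adjusted p = 0.0645), and over the alternatives the adjusted p ran from 0.00166 to 0.498. All mutant libraries were higher in each comparison, an order that 11.6%, 6.64% and 6.55% of all tested genes had in untreated KO, KO with novelty and ifKO. The median of the 9 was 0.03 in untreated KO, 0.11 after novelty in KO and -0.03 in ifKO. Serpini1, or neuroserpin, differed by -0.21 ± 0.14 in untreated KO and by -0.05 ± 0.03 in ifKO.

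Of 15 other serine proteases of brain, 12 were tested in the KO line and 13 in the inducible line. In untreated KO, KO after novelty and ifKO 0 of them passed, against 1.24%, 1.34% and 0.645% of all tested genes. The median log2 difference of these proteases was 0.06 in untreated KO, 0.03 after novelty in KO and 0.03 in ifKO. Htra1, a secreted protease of astrocytes, differed by 0.02 ± 0.10 in untreated KO and by 0.12 ± 0.05 in ifKO. Reln, the secreted glycoprotein reelin, which has serine protease activity, differed by -0.23 ± 0.20 and -0.05 ± 0.05. Plat, the tissue plasminogen activator, differed by 0.05 ± 0.07 and 0.07 ± 0.10.

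Markers of other cell types were summed beside Klk10. Of 12 markers of keratinocytes and other stratified epithelium, 6 to 9 had counts in a library. Their summed level was 16.6 to 19.1 CPM in untreated KO and 12.5 to 14.1 CPM in untreated WT, 16.3 to 17.0 CPM in KO and 12.4 to 13.5 CPM in WT after novelty, and 14.9 to 18.2 CPM in ifKO and 12.7 to 14.6 CPM in control. Krt1, Krt10, Lor, Trp63, Krt5 and Sfn had counts in all 18 libraries, Ivl was at 0 in all 18, and Krt14 had 0 or 1 count in each. Krt1, a keratin singled out after its values were seen, averaged 6.57 ± 1.01 CPM in untreated KO and 2.72 ± 0.35 CPM in untreated WT, and 4.98 ± 0.309 CPM in ifKO and 2.94 ± 0.281 CPM in control (SD, n = 3 each). With all 12 markers every mutant library was above every library it was compared with. Without Krt1 the other 11 summed to 10.1 to 11.5 CPM in untreated KO and 9.62 to 11.2 CPM in untreated WT, 9.59 to 10.6 CPM in KO and 9.77 to 10.4 CPM in WT after novelty, and 10.1 to 12.8 CPM in ifKO and 10.1 to 11.5 CPM in control, with overlap in each. Since Krt1 was taken out for its values, this overlap is a description. Krt10, another keratin of skin, stood at 4.48, 4.72 and 3.72 CPM in untreated KO, against 5.36, 5.07 and 5.08 CPM in untreated WT. Krt5 went the other way there, at 0.743, 1.43 and 0.88 against 0.432, 0.578 and 0.63 CPM. Trp63 was lower in KO after novelty, at 1.17, 1.05 and 0.953 against 1.31, 2.2 and 2.09 CPM. Lor was higher in ifKO, at 1.58, 1.82 and 3.07 against 1.55, 1.55 and 1.56 CPM. Of all tested genes 9.35%, 11.6%, 4.56% and 6.55% had these orders. In the other comparisons of these genes, and for Sfn in all, groups overlapped. The part of these cells in the result was not tested.

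Excitatory neuron markers summed to 8270 to 8750 CPM in untreated KO and 7840 to 7960 CPM in untreated WT, 7660 to 8700 CPM in KO and 8360 to 9010 CPM in WT after novelty, and 6550 to 6880 CPM in ifKO and 6050 to 6460 CPM in control. Choroid plexus markers summed to 659 CPM in KO untreated library 2 and 423 CPM in control library 1, and to 41.4 to 89.4 CPM in the other 16. Klk10 in these 2 libraries, at 11 and 0.648 CPM, was the lowest and the highest of its group. Meningeal fibroblast markers summed to 153 to 181 CPM in untreated KO and 174 to 254 CPM in untreated WT, 137 to 210 CPM in KO and 132 to 213 CPM in WT after novelty, and 106 to 123 CPM in ifKO and 129 to 143 CPM in control. Germ cell genes, some of which are known to rise without Kdm5c, summed to 33.5 to 38.5 CPM in untreated KO and 12.6 to 14.2 CPM in untreated WT, and to 30.2 to 34.9 CPM in KO and 9.45 to 11.5 CPM in WT after novelty. In ifKO they summed to 11.8 to 13.8 CPM, against 14.5 to 14.6 CPM in control, so that Klk10 was higher in ifKO while this list was not. The part of these cell types in the values of Klk10 was not tested.

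The genes most like Klk10 over the 18 libraries were ranked by Pearson's correlation of log2 CPM, centred within flowcell, among 17507 genes. These libraries share their groups, so the correlation describes the same group differences. Capn3, a calcium-dependent protease, and Acta1, the actin of skeletal muscle, had r of 0.980. They were followed by Cacng6, a calcium channel gamma subunit (0.979), Spink8, of the Kazal family of serine protease inhibitors (0.979), and Col22a1, a collagen (0.976). All 5 were higher in KO and ifKO, by log2 differences of 0.91 to 3.27 in untreated KO and 0.59 to 3.42 in ifKO. Capn3 lies on chromosome 2, Acta1 on 8, Spink8 on 9 and Col22a1 on 15, while Cacng6 lies on chromosome 7 at 3424195 to 3435667, far from the cluster. Of the members, Klk9 had r of 0.644 and ranked 627, and Klk7, Klk6 and Klk8 had r of 0.0016, -0.412 and -0.657.

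**Figure D4:**
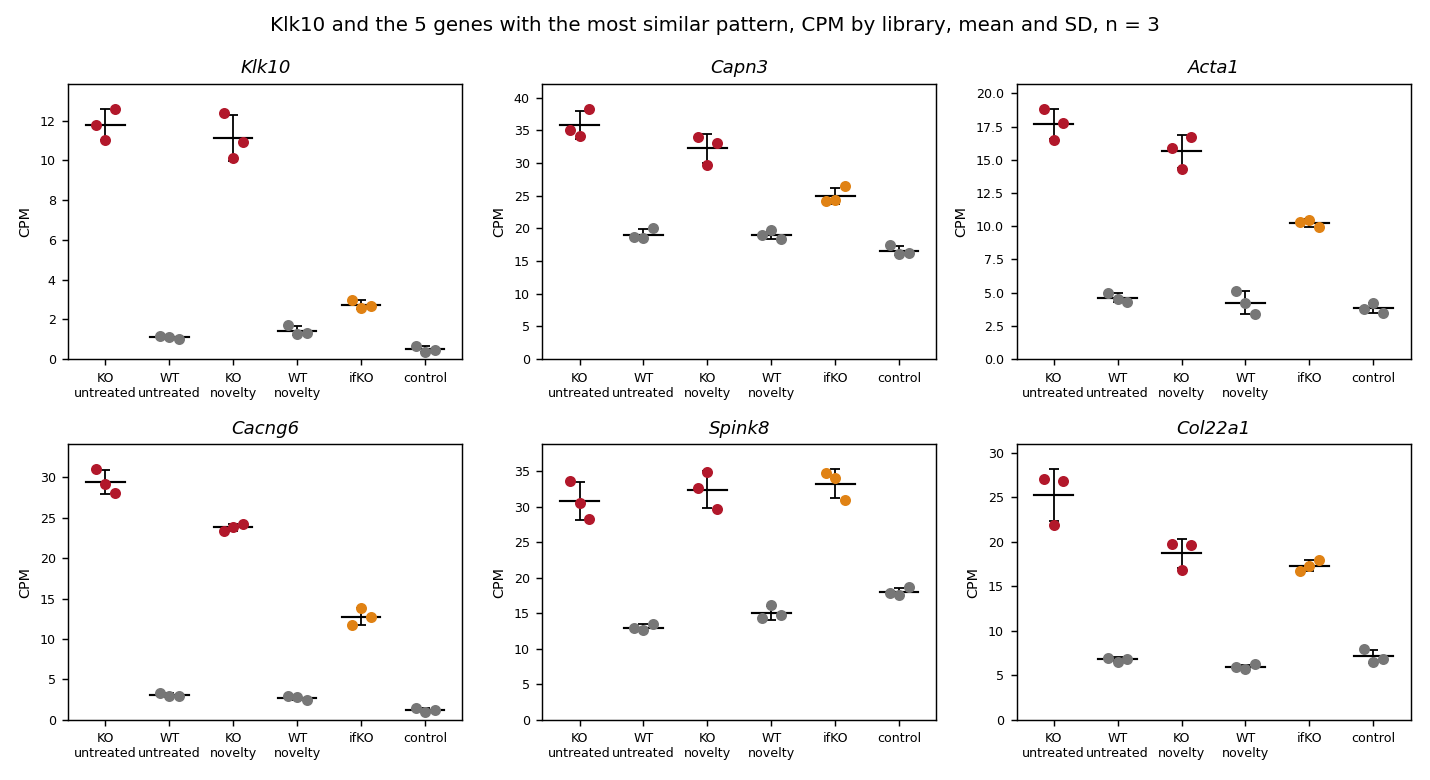
CPM of Klk10 and of the 5 genes with the highest correlation with it, in each library (points), with group means and SD (lines, n = 3); groups run along the horizontal axis. All KO libraries lie above all WT libraries and all ifKO libraries above all control libraries in each panel.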

How the data were processed

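Each deposited file holds raw counts per Ensembl gene of 1 library, without normalization. The submitters' processing notes name build GRCm38 and the tools HTSeq 0.6.1, STAR 2.5.0c, DESeq2 and SAMtools 1.3. Neither strand setting nor annotation release is given there. The inducible line has 2 records per library, 1 for either read, which share 1 count file, so 24 records give 18 libraries. Reads in no feature (14.7 to 17.2%) and ambiguous reads (0.765 to 1.06%) were left out. Of 47069 gene IDs 46574 had an entry in GENCODE M21 and 495 did not.

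Counts were fitted in R 4.3.3 with edgeR 4.0.16 (TMM, filterByExpr with a minimum count of 10 and total of 15, quasi-likelihood test, Benjamini-Hochberg over all tested genes, threshold 0.05, prior count 0.125). The 12 KO and WT libraries shared 1 fit, the inducible line had its own, and the lines were compared in a fit of all 18. CPM use the TMM factors of the line's own fit. DESeq2 1.42.0 was an alternative, as were RLE factors, no filter or a stricter filter (1 CPM in 3 libraries), fewer or more groups in the fit, a replicate block, and each library left out. Intervals are at 95% and, for ratios of counts, cover counting error only. The likeness used a prior count of 2. The code was tested on simulated counts.

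All members are named with their values. From each further list the genes that passed are named, and otherwise some of the 4 with the highest mean CPM. The values of 1 listed gene are not reported here. Members, lists and doubtful libraries were chosen with earlier results of these data known.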

Additional observations from a re-analysis of the deposited data

How the results depend on the processing

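Of 855 alternative values, 794 kept their direction and side of the threshold or stayed within 1.5 times, 10 changed sign, 1 was weaker, 7 were stronger and 43 moved. The number of neighbours that passed was 0 to 0 in all 7 comparisons when single libraries were left out, and 0 under every other alternative except 1, Klk8 in KO after novelty, with the stricter low-count filter (-0.36, adjusted p = 0.0484). Klk10 differed by 3.38 to 3.48 in untreated KO, 2.85 to 3.17 in KO after novelty and 2.29 to 2.71 in ifKO. The 10 sign changes were of differences that passed no threshold. Without single libraries, Klk6 ran from -0.70 to 0.85 for novelty in KO, -0.55 to 0.47 for KO after novelty and -1.115 to 0.057 for KO against ifKO, Klk9 from -0.044 to 2.25 for novelty in WT and -0.32 to 1.65 for KO after novelty, Klk7 from -0.044 to 0.268 for ifKO and Klk8 from -0.065 to 0.142 for KO against ifKO. Without both novelty libraries that stood apart, Klk9 was -0.046 for novelty in WT. Counts over all genes moved more. They ran from 121 to 347 in untreated KO (204 in the fit reported), 104 to 705 in KO after novelty (219), 56 to 398 in ifKO (112), 4 to 451 for novelty in WT (63), 1 to 101 for novelty in KO (18), 0 to 331 for genotype by novelty (0) and 18 to 83 for KO against ifKO (20). The cause was not tested. Depth limits Klk5, Klk9, Klk11 and Klk13.

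Libraries with the same replicate number did not deviate together: over 21 pairs the correlation of deviations ran from -0.254 to 0.302, with 2 above 0.1. With the replicate number as a block, 0 neighbours passed in each of the 7 comparisons, and the calls over all genes were 33 in place of 63 for novelty in WT and 6 in place of 18 for novelty in KO.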
